A study of Mus musculus with 3 samples.

Results

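Among 21848 annotated mouse transcripts of the biotype retained intron, 805 reached a mean abundance of at least 1 TPM (a length-scaled transcript abundance that sums to the same total in every library) in the cytosol of stimulated macrophages. These 805 transcripts, named here by gene symbol and transcript number, were chosen by that annotated biotype and that mean, so their abundance is a description and is not tested. They came from 686 genes, and 800 of them from protein-coding genes. All 3 libraries were of total RNA without ribosomal RNA, taken from the cytosol of macrophages grown from C57BL/6J bone marrow. For 60 min the cells had been exposed to 100 ng/ml lipid A, the membrane anchor of lipopolysaccharide and a Toll-like receptor ligand. No genotype other than the strain is labelled, the age is not given, and no unstimulated or nuclear sample was analysed here, so no induction or export was measured. Each library was made from 1 µg of RNA, and expected counts summed to 64110862, 72057046 and 69345880 in replicates 1, 2 and 3. Nothing but a biosample entry for each says that the cultures were separate, so every spread is that between these samples and may be technical.

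Introns are normally removed from a pre-messenger RNA by the spliceosome, which cuts after the upstream exon at a donor site, usually beginning with GT, and before the downstream exon at an acceptor site, usually ending in AG. A retained intron stays in the RNA. Such RNA is often held in the nucleus, and where it is translated an intron frequently brings a stop codon into frame, which can direct the RNA to nonsense-mediated decay. In the annotation the biotype also covers noncoding models that begin or end within an intron of a coding transcript.

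The sequences of abundant examples show both kinds. All are in mm10 from the annotation's own transcript sequences, on the strand of the gene. The first group holds introns kept whole, shown because these 3 transcripts made up most of their gene's TPM. Capitals mark the GT and AG of the intron and the first in-frame stop codon, and up to 12 exon bases in lower case flank it.
Cd83-202, chr13:43785251-43785345, plus strand: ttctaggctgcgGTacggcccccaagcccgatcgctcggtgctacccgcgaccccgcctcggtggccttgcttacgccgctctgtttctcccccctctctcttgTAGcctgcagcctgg
Rps20-201, chr4:3835292-3835483, minus strand: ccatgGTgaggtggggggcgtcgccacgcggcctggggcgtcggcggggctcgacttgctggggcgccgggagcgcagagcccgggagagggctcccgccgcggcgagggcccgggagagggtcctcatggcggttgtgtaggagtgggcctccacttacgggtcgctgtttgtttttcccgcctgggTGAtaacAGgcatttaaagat
Prelid1-202, chr13:55324445-55324526, plus strand: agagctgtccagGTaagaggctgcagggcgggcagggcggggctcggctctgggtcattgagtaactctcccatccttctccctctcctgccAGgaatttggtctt

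The Cd83 intron was intron 1 of 4 and 95 bases long, and its stop codon, codon 32 read from the splice junction, shares bases with the acceptor AG. In Rps20 intron 1 of 3, 192 bases long, the stop was codon 62. Intron 3 of 4 of Prelid1 held no stop codon in frame over its 82 bases. That length is not a multiple of 3, so the intron shifts the reading frame of the exon after it. The second group shows models that hold only part of an intron, and was chosen from the 12 most abundant transcripts. Capitals mark the bases that lie in no exon of a coding transcript, and lower case the adjoining exon.
H2-K1-215, chr17:33996655-33996674, minus strand: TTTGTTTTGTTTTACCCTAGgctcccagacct
Vim-203, chr2:13579369-13579420, plus strand: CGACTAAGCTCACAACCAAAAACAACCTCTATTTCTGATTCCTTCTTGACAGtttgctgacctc
Rps16-203, chr7:28350924-28350991, plus strand: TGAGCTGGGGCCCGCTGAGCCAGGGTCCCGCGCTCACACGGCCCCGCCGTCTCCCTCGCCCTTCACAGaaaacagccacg
Trf-209, chr9:103211997-103212006, minus strand: CTCTACCCAGgaaagaaccctg
Rgs1-203, chr1:144247795-144247905, minus strand: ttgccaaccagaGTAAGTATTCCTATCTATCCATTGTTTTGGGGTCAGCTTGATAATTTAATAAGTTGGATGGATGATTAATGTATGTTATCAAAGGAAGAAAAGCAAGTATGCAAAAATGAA

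H2-K1-215, Vim-203, Rps16-203 and Trf-209 began in the last bases of an intron, up to its AG, and ran on into the exon. Rgs1-203 ran past the end of an exon through the GT of the next intron and ended 111 bases into that intron. The intronic stretch was 20 of 457 bases in H2-K1-215 and 10 of 433 bases in Trf-209.

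Most of the 805 transcripts were of this partial kind. A whole intron that overlapped no coding exon lay in 198 of them (24.6%), against 30.3% of the 14259 retained-intron transcripts under 1 TPM in genes of at least 1 TPM. A median of 83.9% of a transcript's bases lay in exons of coding transcripts (interquartile range 66.3 to 92.5%), against 55.7% among those under 1 TPM. The median number of bases outside coding exons was 136, against 363. In 371 transcripts (46.1%) those bases lay at the 5′ end, against 28% of those under 1 TPM, and in 191 (23.7%) at the 3′ end, against 39.1%. Where such a 5′ stretch ran straight into a coding exon, 405 of 441 ended in AG (91.8%), against 89.7% of those under 1 TPM. Where a 3′ stretch ran on from one, 222 of 269 began with GT (82.5%), fewer than the 94.7% of those under 1 TPM. Reads on shared exons are divided between transcripts by the quantifier, and the reads on the intronic bases themselves were not analysed here.

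**Figure D1:**
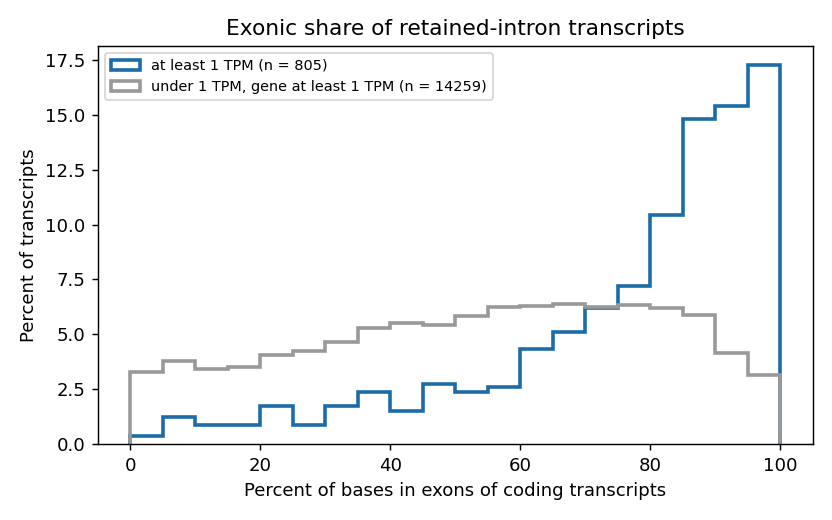
Percent of each transcript's bases that lie in exons of coding transcripts of the same gene (x axis, bins of 5%), as a percent of the transcripts in each class (y axis). The 805 transcripts of at least 1 TPM (blue) have a median of 83.9%, and the 14259 under 1 TPM in expressed genes (grey) a median of 55.7%.

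The whole introns were short. The 225 distinct ones had a median length of 192 bases (10th to 90th percentile 80 to 1112), against 264 bases for 5044 such introns in transcripts under 1 TPM, and 52.4% were under 200 bases, against 41.3%. Their median GC content of 50.9% lay close to the 50.5% of the others. GT and AG bounded 223 of them, and the other 2 had GC and AG. Numbered within 1 reference transcript of the gene, which may be a shorter model, the last intron made up 12% (27 introns), against 6.36%. The first made up 15.6%, against 7.34%. Coding sequence lay on both sides of 211 introns, and reading on from the upstream exon met a stop codon in 188 of these (89.1%), against 89.5% of the others, at a median of codon 11. Neither a stop nor a shift of frame was found in 9 of the 211 (4.27%), against 2.13% of the others. Small RNA genes lay in 2 of the 225 introns (0.889%), against 1.53% of the others. An intron held by transcripts of both classes was counted in both sets, so the 225 and the others may overlap. These are counts of annotation and carry no test.

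The abundance was concentrated in few transcripts. The median was 2.49 TPM, 331 transcripts lay between 1 and 2 TPM, 9 exceeded 100 TPM, and the 12 highest held 34.1% of the summed TPM. Ctsb-202, from the gene of the lysosomal protease cathepsin B, had the highest mean but stood at 875, 48.8 and 108 TPM in replicates 1, 2 and 3. It was high in replicate 1 alone, and its share of the gene's TPM (IsoPct) was 24.2, 2.93 and 4.84%. H2-K1-215, from a gene of the class I histocompatibility complex that presents peptides, was at 395, 270 and 314 TPM. Cd83-202 followed at 415, 199 and 202 TPM. CD83 is a surface protein of activated antigen-presenting cells. Vim-203, from the gene of the intermediate filament vimentin, was at 258, 173 and 259 TPM. Itm2b-202 was at 346, 161 and 152 TPM.

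Ribosomal protein genes gave 4 of the 12. Rps20-201 was at 267, 152 and 137 TPM and Rps16-203 at 229, 150 and 141 TPM, both highest in replicate 1. Rpl13a-213 had a mean of 143 ± 28.7 TPM (SD, n = 3) and Rpl15-206 of 90.7 ± 11.4 TPM. Rgs1-203, from the gene of a regulator of G protein signalling, had 133 ± 54.2 TPM, Trf-209, from the transferrin gene, 79.5 ± 13.0 TPM, and Fxyd5-214 79.2 ± 23.6 TPM. Rpl13a-213 and Trf-209 are uncertain, since 85.1 and 85.2% of their bases also lie in exons of other genes on the same strand (Gm45713 and Snord33, and Gm20425). Over all 805, 61 overlapped exons of another gene on the same strand and 119 on the opposite strand, and strand use in the counting is not given in the sources.

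**Figure D2:**
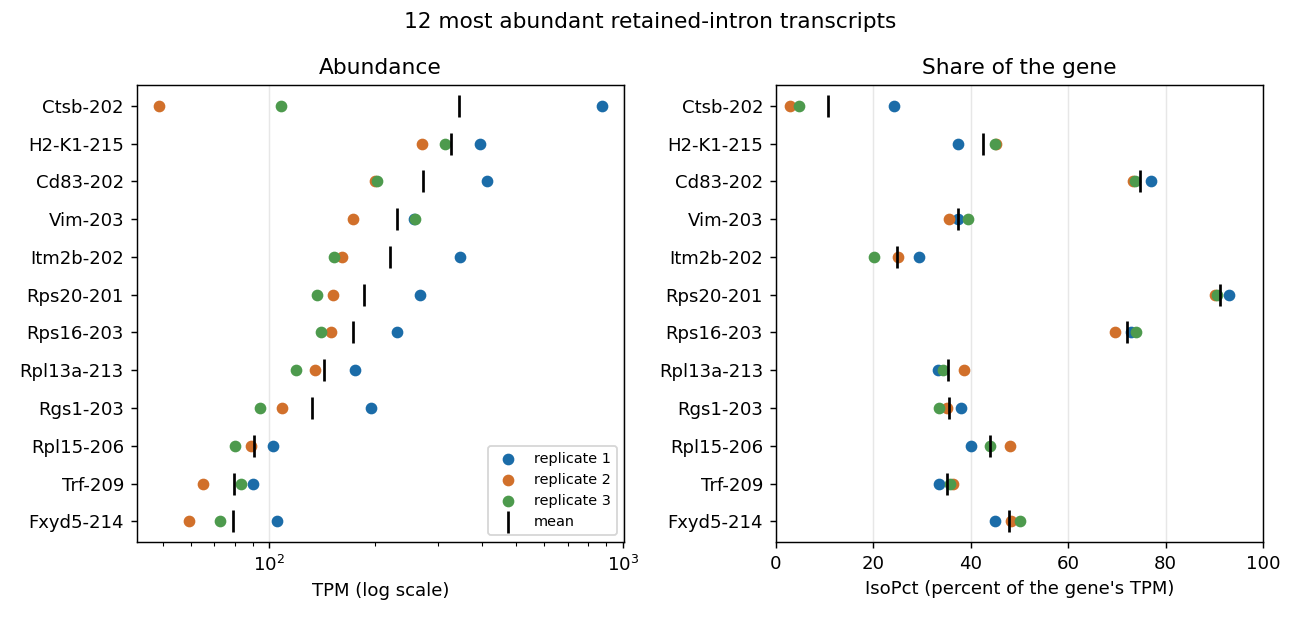
TPM on a log axis (left) and IsoPct, the percent of the gene's TPM (right), of the 12 most abundant retained-intron transcripts in each library (points) with the mean (black bar). Ctsb-202 spreads from 48.8 to 875 TPM, while Rps20-201 stays between 90.1 and 93.1% of its gene.

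At the threshold, AI413582-202, Rps6kb2-208 and Lilrb4a-203 lay just inside at 1.01, 1.00 and 1.00 TPM, and Pex19-206, Fcho2-209 and Gcc2-209 just outside at 0.997, 0.997 and 0.993 TPM. The threshold was met in every library by 573 of the 805. The interval on TPM that the quantifier wrote, whose level the files do not state, had its lower bound at 1 TPM or more in every library for 444.

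As a share of their gene, the transcripts were mostly minor. The median IsoPct was 15.9%, and it was 15.2, 16.5 and 16.1% in the single libraries. In 160 transcripts IsoPct was under 5% in every library, and in 50 it was 50% or more in every library. Coding transcripts held at least 50% of the gene in every library for 582. A retained-intron transcript was the highest of all transcripts of its gene in every library in 85 cases (10.6%). The second set of transcript tables gave 98, with 67 shared, and expected counts, which are not scaled by length, gave 50, with 42 shared.

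**Figure D3:**
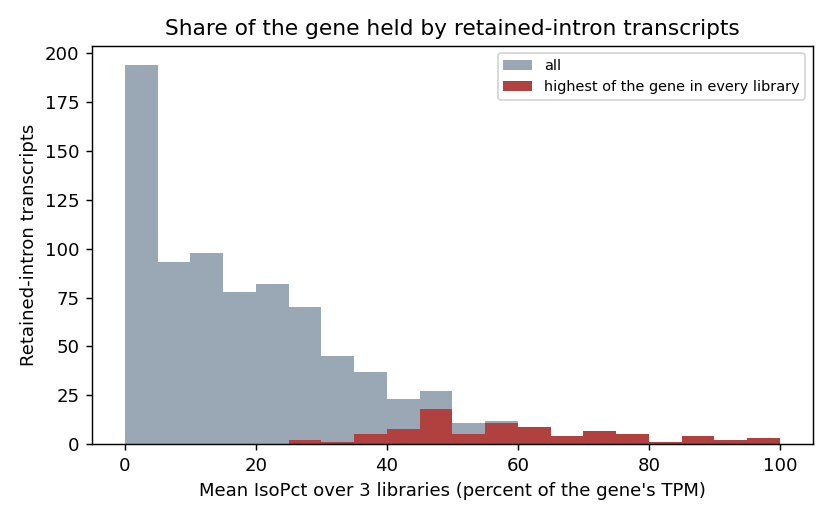
Number of retained-intron transcripts (y axis) by mean IsoPct, the percent of the gene's TPM (x axis, bins of 5%), for all 805 (grey) and for the 85 that were the highest of their gene in every library (red). The median of all 805 is 15.9%.

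Mrpl57-202, from a gene of the mitochondrial ribosome, held the largest share among genes of at least 10 TPM, with 94.1, 93.8 and 94.5% in replicates 1, 2 and 3. Rps20-201, whose intron is printed above, held 93.1, 90.1 and 90.6%. Chic2-202 held 89.95 ± 0.519% (SD, n = 3), Tmem132a-203 88.1 ± 0.862% and Prelid1-202 83.6 ± 0.745%. Prelid1 encodes a mitochondrial lipid transfer protein. Ncl-202, from the gene of the nucleolar protein nucleolin, held 79.8 ± 0.580%, Ncapg2-206 77.3 ± 2.78% and Cd83-202 74.7 ± 2.04%. Timm17a-204, of a mitochondrial import gene, held 72.8 ± 2.47% and Rps16-203 72.2 ± 2.27%. These shares differed little between the libraries although the TPM of Cd83-202 and Ncapg2-206 was about as low in replicates 2 and 3 and highest in replicate 1. In the second tables the means were 92.4% for Mrpl57-202, 92.3% for Rps20-201 and 68.1% for Cd83-202.

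Several genes gave more than 1 transcript, 90 of the 686 in all. Lilr4b gave 8 and Lilrb4a 6, a pair of closely related immunoglobulin-like receptor genes between which reads may be divided, so their values are uncertain. Pirb and H2-K1, likewise of multigene families, gave 4 each, as did Tnfaip2.

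Among the gene lists, inflammatory genes had many transcripts over the threshold but small shares. Over all genes of at least 1 TPM, 805 of 15064 retained-intron transcripts (5.34%) were over it. For cytokines and chemokines it was 9 of 15, with a median IsoPct of 0.830%. Ccl6-202 was at 51.8, 5.24 and 17.3 TPM, lowest in replicate 2. Il1b-203, from the gene of interleukin 1 beta, was at 12.9, 3.11 and 5.42 TPM and held 1.20, 0.400 and 0.890% of the gene. Without replicate 1 the mean of Ccl6-202 went from 24.8 to 11.3 TPM and that of Il1b-203 from 7.14 to 4.27 TPM. Ccl5-202 had 6.89 ± 5.601 TPM, and 3.66 TPM without replicate 1, and Ccl2-202 had 6.15 ± 3.44 TPM. For immediate early genes it was 10 of 23, with a median IsoPct of 1.45%. Beside Rgs1-203, these included Egr3-202, from the gene of a zinc finger transcription factor, with 39.1% of its gene at 5.18 ± 1.70 TPM. Dusp1-203, from the gene of a MAP kinase phosphatase, held 0.903% at 4.06 ± 1.80 TPM.

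The list of NF-kB subunits and regulators also holds genes of Toll-like receptors, their co-receptors such as Cd14, and their adaptors. It gave 11 of 63, led by Cd14-202 (51.8 ± 7.72 TPM) and Tnip3-205 (14.0 ± 7.16 TPM). Tnfaip3-206, from the gene of the NF-kB inhibitor A20, had 5.85 ± 4.47 TPM, and 3.35 TPM without replicate 1. Interferon-stimulated genes gave 10 of 66, led by Oasl2-204 (6.75 ± 2.54 TPM). Macrophage and lysosome genes gave 30 of 76 with a median IsoPct of 0.705%. Beside Ctsb-202, these included Fth1-207 (22.4 ± 4.72 TPM, 0.280% of the ferritin heavy chain gene) and Npc1-206 (20.3 ± 4.23 TPM), which in the second tables were at 1.73 and 0.891 TPM. The list of ribosomal protein genes gave 17 of 190 with a median of 24.9 TPM and a median IsoPct of 16.7%. That list also holds the kinase gene Rps6kb2, which is not a ribosomal protein gene. The Rps6kb2 transcript, at 1 TPM, is the lowest of the 17 and is included in the count and in both medians. Translation factors gave 10 of 95.

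Genes of splicing regulators lay near the 5.34% over all expressed genes. It was 5 of 99 (5.05%) for SR proteins, which promote exon recognition, together with SR-related and other splicing factors. For CLK, DYRK and SRPK kinases, which phosphorylate SR proteins, and cyclins L it was 2 of 43 (4.65%). For hnRNP and other RNA-binding proteins it was 5 of 130 (3.85%). Srsf1-203 had 2.91 ± 0.546 TPM and Clk3-202 2.92 ± 0.431 TPM. Rsrp1-204 had 3.14 ± 2.23 TPM, and 1.96 TPM without replicate 1. Hnrnpm-213 had 6.35 ± 2.08 TPM, but 0.318 TPM in the second tables. None of the 42 retained-intron transcripts of noncoding snoRNA host genes reached 1 TPM on average. The counts follow the level of the genes as well as the share retained, since the threshold is on TPM.

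All retained-intron transcripts together made up 3.35, 2.66 and 2.90% of the TPM of protein-coding genes in replicates 1, 2 and 3, highest in replicate 1 and lowest in replicate 2. The mean was 2.97 ± 0.353% (SD, n = 3). Without Ctsb-202 it was 3.09, 2.63 and 2.85%, and transcripts with a whole intron alone gave 0.760, 0.577 and 0.642%. Of the expected counts of protein-coding genes the share was 1.73, 1.29 and 1.45%. The nuclear RNA Malat1 stood at 1277, 565 and 1367 when TPM was rescaled to protein-coding genes and Neat1 at 119, 57.2 and 152, also lowest in replicate 2 but highest in replicate 3. Their part in the result was not tested. TPM was highest in replicate 1 for 638 of the 805. Rescaled to the same total over nuclear-encoded protein-coding genes, 359 were highest there. The signal recognition particle genes Rn7s1 and Rn7s2 took 57.2, 69.7 and 62.2% of all TPM, and every other TPM is lower for it. Macrophage markers were all 6 at 21.7 TPM or more, and of 29 markers of other cell types 3 reached 1 TPM. These 3 were S100a9 (15.9 TPM), S100a8 (10.1 TPM) and Ngp (1.92 TPM), while Hbb-bs and Hba-a1 were at 0.

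The spread between libraries was larger than for coding transcripts at like abundance. Between 1 and 5 TPM the median SD of log2(TPM + 0.1) over the libraries, each centred on its coding transcripts, was 0.36 for 584 retained-intron and 0.16 for 6925 coding transcripts. At 5 TPM or more it was 0.23 for 221 and 0.12 for 5614. The biological coefficient of variation (BCV), estimated by edgeR on 778 of the 805 that passed its count filter, had a median of 0.286. It was 0.182 over all transcripts of at least 1 TPM, a comparison not matched on abundance. Between 1 and 5 TPM the median BCV was 0.303, against 0.205 for coding transcripts, and at 5 TPM or more 0.210, against 0.142. In simulated counts of 28122 transcripts edgeR's default shrinkage returned 0.364 for transcripts made with 0.792, so single BCV values are drawn toward the trend. For the remaining transcripts, made with a median of 0.265, it returned 0.313, so the default medians may be too high. Without shrinkage the medians of the retained-intron transcripts and of all transcripts of at least 1 TPM were 0.198 and 0.102. In the same simulation that fit returned 0.594 for 0.792 and 0.189 for 0.265, so these levels are too low. These are descriptions without a test. The highest BCV at 5 TPM or more belonged to Tpt1-208, at 3.17, 79.7 and 6.17 TPM, high in replicate 2 alone, and its mean fell from 29.7 to 4.67 TPM without it. Then came Ctsb-202, whose mean of 344 TPM was 78.4 TPM without replicate 1. Pld3-208 was at 30.2, 3.03 and 3.36 TPM, with a mean of 12.2 TPM, or 3.20 TPM without replicate 1. Lilr4b-206 (6.71 TPM, or 2.72 TPM without replicate 1) and Ccl6-202 completed the 5.

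The same reads had been quantified a second time, which asks how far the values rest on the quantifier. The median coding transcript differed by -1.54, -1.005 and -0.95 in log2(TPM + 0.1) for replicates 1, 2 and 3, lower in the second tables, and differences are given relative to that median. The limma test chosen first against a 2-fold band called 0 of the 805 and 0 of all 15219 transcripts of at least 1 TPM (background 0%) after Benjamini-Hochberg adjustment. The smallest adjusted p was 0.0695. At an unadjusted p under 0.05 it gave 109 lower (background 4.92%) and 28 higher (background 2.12%). The count of 0 depended on the settings of the fit. Without centring 261 were lower (background 13.2%) and 0 higher (background 0%), and without a filter on low values 179 lower (background 1.86%) and 1 higher (background 0.726%). With the minimum set on the mean of both quantifiers, which 629 of the 805 passed, 25 were lower (background 1.35%) and 5 higher (background 1.8%).

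After that result was seen, further rules were tried. That fit sets its prior variance along the mean difference itself, which gave Tfrc-204 an SE of 7.50. With the trend on abundance instead, 23 were lower (background 1.14%) and 2 higher (background 0.276%), but 0 in either direction without replicate 2 or without replicate 3. Without replicate 1 they were 11 (background 0.631%) and 1 (background 0.243%). By a plain count, 119 of the 805 (14.8%) were more than 2-fold lower in each library (background 5.27%) and 42 (5.22%) more than 2-fold higher (background 2.79%). For transcripts of the biotype processed transcript these were 13.0 and 6.04%, for nonsense-mediated decay 11.6 and 6.09%, and for coding transcripts 3.02 and 2.02%. All of these transcripts had been selected by first-table TPM and none by second-table TPM.

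Some examples, chosen after their values were seen, were far apart. Tfrc-204, from the transferrin receptor gene, was at 62.9, 30.3 and 45.8 TPM in the first tables and had a mean of 0.00853 TPM in the second. Anpep-206, from the aminopeptidase N gene, was at 84.2, 63.1 and 75.7 TPM, and at 0.194, 0.0441 and 0.258 TPM in the second. In both, the bases outside coding exons lay at the 5′ end. In the other direction Gm43305-201 was at 5.52, 3.82 and 3.84 TPM and at 21.9, 20.998 and 24.1 TPM. Ctsb-202 was at 612, 380 and 452 TPM in the second tables, without the gap between replicate 1 and the others that the first tables show. By contrast Cd83-202, Rps20-201, Prelid1-202 and Mrpl57-202 differed from the median coding transcript by -0.20, -0.05, -0.11 and 0.04 on the log2 scale.

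**Figure D4:**
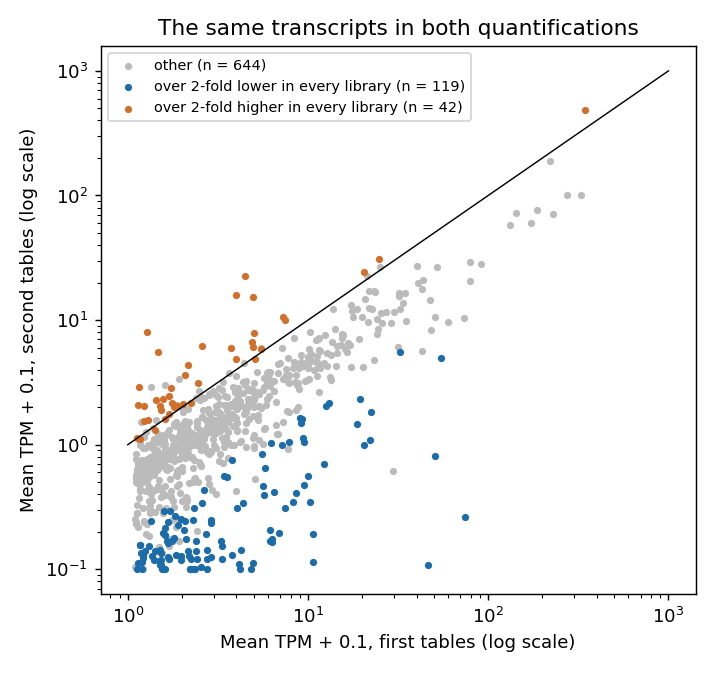
Mean TPM + 0.1 of the 805 retained-intron transcripts in the second tables (y axis) against the first (x axis), both log scales, with the line of equality. Relative to the median coding transcript, 119 are more than 2-fold lower in every library (blue) and 42 more than 2-fold higher (orange). Over all 15219 transcripts of at least 1 TPM the shares are 5.27 and 2.79%.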

How the data were processed

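Each library had a gene table and a pair of transcript tables. Per the file headers, the first deposited tables hold expected counts, TPM, the percent of the gene's TPM per transcript (IsoPct) and interval bounds on TPM, a signal of unstated level, in columns named as RSEM writes them. The second deposited transcript tables hold estimated counts and TPM in columns named as kallisto writes them. The deposited description files name mm10 and annotation M21. Neither quantifier versions nor strand are given in the sources.

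The 141767 annotated transcripts in both tables were kept. Other features, mostly spike-ins and numbered entries, held 0.272, 0.104 and 0.0705% of expected counts in replicates 1, 2 and 3. Introns and sequences came from the GENCODE M21 annotation and transcripts (GRCm38). An intron was taken as whole when an exon of the transcript covered it, at 20 bases or longer.

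The quantifiers were compared with limma 3.58.1 (treat, band of 1 on the log2 scale, pseudocount 0.1, trended prior, Benjamini-Hochberg at 0.05), in R 4.3.3. In simulated data of 15219 transcripts it recovered 185 of 200 shifts of 3 on the log2 scale. All other simulated transcripts were noise around no difference, unlike the data. The simulation therefore cannot say how many real differences of that size the fit missed. The trend on abundance, the plain 2-fold count, the unshrunk BCV and the log2 SD were added after the first results, or the simulated BCV values, had been seen. Spread was estimated with edgeR 4.0.16 on rounded counts. DESeq2 1.42.0 gave alternative size factors. Python 3.11.15 did the rest.

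Members and the 12 gene lists were chosen with earlier results of these data known. Named transcripts are the 12 of highest TPM, the 10 of highest IsoPct in genes of at least 10 TPM, up to 4 a list, up to 5 called in each direction between quantifiers (the limma fit as first chosen called none), the 5 of highest BCV at 5 TPM or more, and 3 on either side of the threshold. Not all of them are described, and 1 result is not reported here. Precision is limited by 3 libraries.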

Additional observations from a re-analysis of the deposited data

How the results depend on the processing

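No paired analysis was possible because all libraries belong to 1 group; the quantifiers were compared within each library. The number of transcripts of at least 1 TPM, 805, was 493 with the second tables' TPM, 412 of them shared (51.2% of the 805 and 83.6% of the 493), or 908 with 622 shared (77.3% of the 805) once these were rescaled to the first tables' coding total. It was 2116 when TPM was rescaled to the nuclear-encoded coding genes' total, and 221 at a mean of at least 5 TPM. Leaving out 1 library gave 695 to 895. The share of protein-coding TPM, 2.97%, was 3.46% with the second tables, 1.49% of the expected counts of protein-coding genes and 0.660% for whole introns alone, and 2.78 to 3.12% without 1 library. The 85 transcripts that led their gene became 50 by counts and 91 to 101 without 1 library.

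Between the quantifiers the fit chosen first called 0 lower and 0 higher, also at a pseudocount of 1, with CPM and without any 1 library (0 to 0). No centring gave 261 lower (13.2% over all transcripts) and 0 higher (0%), and no filter 179 (1.86%) and 1 (0.726%). A minimum on the mean of both quantifiers, which 629 of the 805 passed, gave 25 (1.35%) and 5 (1.8%). Of the rules added after seeing these data, the trend on abundance gave 23 (1.14% over all transcripts) and 2 (0.276%). Without 1 library it gave 0 to 11 lower (0 to 0.631%) and 0 to 1 higher (0 to 0.243%). More than 2-fold in every library gave 119 (5.27%) and 42 (2.79%). The cause of these differences was not tested.

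The median BCV, 0.286, was 0.352 with no filter on low counts, 0.266 to 0.340 without 1 library, and 0.198 unshrunk. The median log2 SD, another measure, was 0.31. Of 66 named transcripts, 47 moved by more than their SD over libraries with the second tables' TPM and 66 with rescaled TPM, both of which also shift all transcripts in scale. Leaving out replicate 1 moved the mean of 12 by over 1.5 times and leaving out replicate 2 that of 1, Tpt1-208.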
